A study of Mus musculus with 9 samples.

Results

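The nuclear-encoded subunits of the mitochondrial respiratory chain and ATP synthase were described in mouse liver. They were taken by gene symbol: names starting with Nduf and the letter a, b, c, s or v and a number, the 4 Sdh genes, names starting with Uqcr or Atp5, Cyc1, and the Cox genes numbered 4 to 8 with a letter a to c, without assembly factor names and names marked as pseudogenes. The rule found 90 genes among the 57010 of the table. Of these, 81 passed the filter on low counts, which kept 13686 genes in all. RNA sequencing was made of liver from male BALB/c mice, in 3 untreated libraries (CON) and 6 libraries labelled with acute liver injury after cisplatin, which is a platinum compound that binds and crosslinks DNA. The last 6 are titled CPT (3 libraries) and AT3 (3 libraries). The labels do not spell out AT3; atractylenolide III, a sesquiterpene lactone of plants, is named in the title of the series. No age, dose, route or time was found in the labels. They also do not state that each library is a separate animal; the p-values below then rest on variation among libraries, which could be technical.

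The respiratory chain sits in the inner mitochondrial membrane. Complex I takes electrons from NADH and complex II takes them from succinate; both pass them by ubiquinone to complex III, from where cytochrome c carries them to complex IV, which reduces oxygen. Complexes I, III and IV pump protons, and complex V, the ATP synthase, uses the proton gradient to make ATP. All subunits of complex II and most subunits of the others are encoded in the nucleus, while a few central subunits of I, III, IV and V are encoded by the mitochondrial genome. Hepatocytes are rich in mitochondria and spend much of this ATP on urea, glucose and bile acid synthesis. Promoters of subunit genes are known for sites of NRF1, of the ETS family factor GABPA, of YY1 and of the nuclear receptor ERRα (Esrra), which acts with the coactivator PGC-1α (Ppargc1a).

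Promoter sequences of 67 of the 81 tested members were found in RefSeq on GRCm38.p6, from 250 bases before to 50 bases after each annotated start. The letters CAAGGTCA (ERR element), on either strand, occurred in the promoters of 4 members (5.97%) and of 1.76% of all 27025 genes with a promoter sequence. GCGCATGCG (NRF1) occurred in 8 members (11.9%, against 1.95% of all), AAGATGGCG (YY1) in 7 (10.4%, against 1.64%) and CCGGAAGT (ETS) in 5 (7.46%, against 4.31%). All 4 motifs were searched as exact letters, so degenerate sites are missed. The 4 members with the ERR letters were Atp5g3, Sdhd, Atp5l and Ndufs5. The 150 bases before the start are shown for 4 members described below, with matched letters in capitals: Atp5g3 and Atp5l carry the ERR letters on the reverse strand and rose in CPT, while Uqcrh and Uqcr11 both carry the ETS letters and differed in direction on the CPM scale, though both were called higher on the TPM scale. Atp5l and Uqcr11 also carry the NRF1 letters, outside the bases shown. The windows are chr2:73911327-73911476, chr9:44920743-44920892, chr4:116075071-116075220 and chr10:80406822-80406971, all on the minus strand.
Atp5g3: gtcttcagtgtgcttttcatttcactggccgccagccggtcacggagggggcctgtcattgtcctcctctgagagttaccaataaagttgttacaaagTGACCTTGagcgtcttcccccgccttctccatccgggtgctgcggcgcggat
Atp5l: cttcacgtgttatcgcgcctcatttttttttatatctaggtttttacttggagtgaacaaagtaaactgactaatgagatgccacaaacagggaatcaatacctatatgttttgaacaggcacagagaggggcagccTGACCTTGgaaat
Uqcrh: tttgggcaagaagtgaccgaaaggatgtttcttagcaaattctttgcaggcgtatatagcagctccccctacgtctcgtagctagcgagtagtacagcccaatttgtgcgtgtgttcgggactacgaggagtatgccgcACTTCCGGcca
Uqcr11: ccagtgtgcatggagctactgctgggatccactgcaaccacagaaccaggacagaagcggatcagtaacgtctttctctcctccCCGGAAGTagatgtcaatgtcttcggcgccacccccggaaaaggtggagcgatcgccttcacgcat

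Libraries held 21485021 to 28480479 estimated counts, and 3 counts correspond to 0.0934 to 0.169 CPM (counts scaled to a common library size, with TMM). Counts of mitochondrially encoded genes took 25.8% to 36.8% of each CON library and 9.80% to 16.3% of the other 6, and TMM factors were 0.726 to 0.963 in CON and 1.05 to 1.13 elsewhere. The choice of scale therefore bears on direction. The authors' TPM (transcript abundance per length, scaled to a common total) puts the median log2 difference of all tested genes at 0.29 for CPT against CON, on log2(TPM + 1). On log2(TPM + 0.1) this median is 0.51, and edgeR puts it at -0.02. The 6 hepatocyte markers (1 higher and 3 lower in CPT by edgeR, 3 higher and 0 lower on the TPM scale) summed to 68240 to 72670 CPM in the CON libraries, and the sums were 47320 to 64870 for CPT and 76480 to 82530 for AT3. Erythroid markers (5 of 5 lower in CPT) fell from 797 to 908 CPM in CON to 38.4 to 50.9 in the other libraries, and sinusoidal endothelial markers (5 of 5 lower) from 90.8 to 91.3 to 8.41 to 14.5. Summed Kupffer cell markers (3 of 5 lower, 1 higher) were 20.7 to 27.4 CPM in CON and 8.59 to 12.9 in the others. Neutrophil markers (3 of 3 tested higher in CPT) lay at 2.70 to 3.15 CPM for CON, 20.1 to 44.2 for CPT and 9.48 to 10.7 for AT3. The part of these markers and of the mitochondrial share in the subunit results was not tested. In bulk tissue, fewer cells of a type and less RNA per cell cannot be told apart.

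Most subunit genes were higher in CPT than in CON. By edgeR's quasi-likelihood test with Benjamini-Hochberg adjustment over 13686 genes (adjusted p < 0.05), 51 of the 81 tested members were higher, 12 were lower and 18 were not called. Among all tested genes 30.0% were called higher and 30.8% lower. The median log2 fold change of the members was 0.43. The 3 CPT libraries lay above the 3 CON libraries in 53 members and below them in 14, where 31.5% and 32.7% of all tested genes did so. On log2(TPM + 1) with limma, 68 members were higher and 0 lower, with a median of 0.98. Of all 13686 tested genes, 6631 were higher and 1604 lower on that scale, where edgeR called 4107 and 4219. The 12 falls of members were thus called on the CPM scale and none of them on the TPM scale. There, 0 members were lower at an unadjusted p under 0.05 too. DESeq2 called 52 higher and 13 lower. On log2(TPM + 1) 10 of the 12 members called lower by edgeR lay below the median of all genes, and 4 had a negative difference. On log2(TPM + 0.1) all 12 lay below that median, and 4 again had a negative difference.

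**Figure D1:**
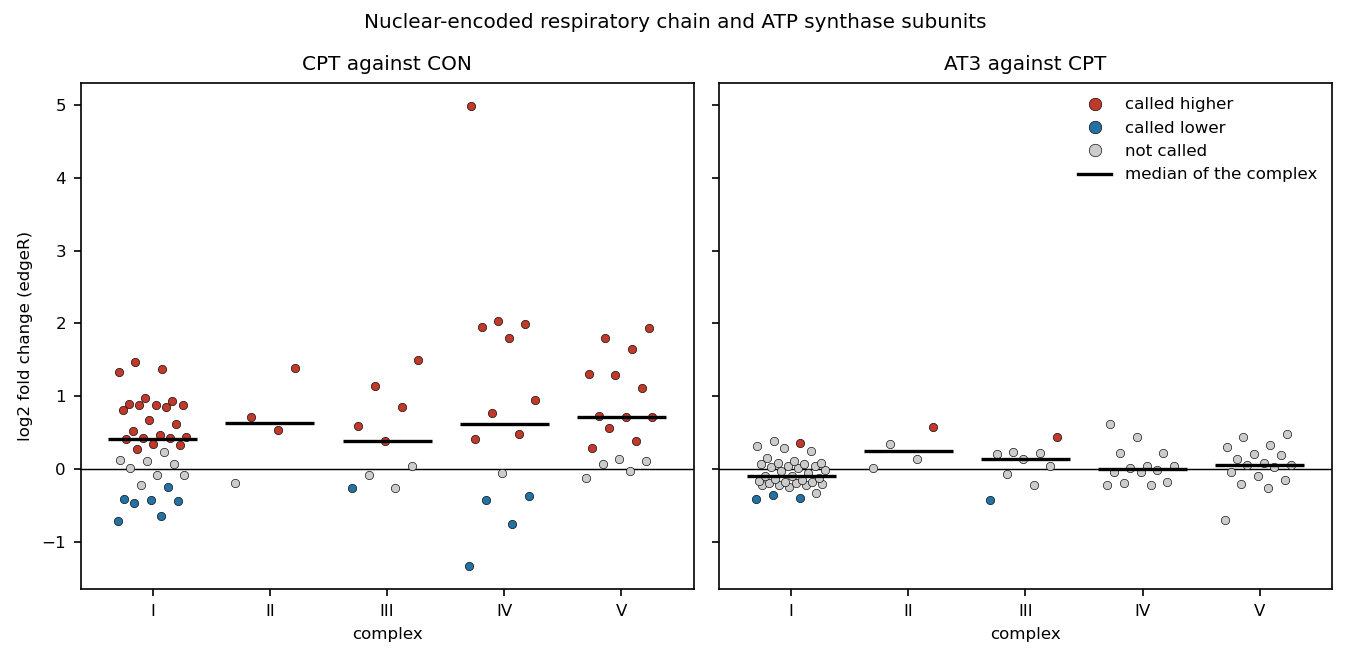
The log2 fold change (edgeR) of each of the 81 tested members is plotted by complex, for CPT against CON on the left and AT3 against CPT on the right; points are genes, red called higher, blue called lower, grey not called, and black lines are medians of a complex. In CPT against CON the medians run from 0.38 (complex III) to 0.71 (complex V), and in AT3 against CPT 74 of the 81 points are grey.

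By complex, complex V had the highest median, 0.71, with 12 of 17 members higher and 0 lower. Complex II followed with a median of 0.63 (3 of 4 higher, 0 lower), then complex IV with 0.62 (9 of 14 higher, 4 lower). Complex I had a median of 0.41 (22 of 37 higher, 7 lower) and complex III of 0.38 (5 of 9 higher, 1 lower). Differences between complexes were not tested, and the range within each complex exceeded the differences between their medians: complex I alone ran from -0.72 to 1.47. On the TPM scale the order was II, IV, V, III, I, with medians of 1.39, 1.19, 1.19, 0.95 and 0.88.

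In complex I the catalytic core and the accessory shell both split. Of the 7 nuclear core subunits 4 rose, 1 fell and 2 were not called, and of the 30 accessory subunits 18 rose, 6 fell and 6 were not called. Ndufv1, which binds NADH and FMN, measured 54.8, 59.1 and 45.1 CPM in CON, 106, 120 and 172 in CPT, and 170, 151 and 167 in AT3. No CPT library overlapped CON, while CPT_3 lay above all AT3 libraries. Its log2 fold change was 1.32 (SE 0.15, adjusted p = 2.41e-06). Ndufs3 (0.46) and Ndufs1 (0.42) also rose.

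Ndufs8, a core iron-sulfur subunit (chromosome 19, 3908863 to 3912774, minus strand, GRCm38), went the other way. It measured 191, 180 and 198 CPM in CON, 127, 106 and 112 in CPT and 91.4, 85.6 and 97.8 in AT3, so no 2 groups overlapped. The log2 fold change in CPT was -0.72 (SE 0.10, adjusted p = 1.11e-05), and -0.12 on the TPM scale (adjusted p = 0.405 by limma). Ndufs7, its neighbour in the complex, was at -0.22 (adjusted p = 0.0775) and Ndufv2 at 0.11 (adjusted p = 0.334).

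Among accessory subunits Ndufb6 had the largest rise: 56.6, 77.1 and 63.3 CPM in CON became 176, 178 and 191 in CPT, and AT3 held 176, 158 and 176. All CPT and AT3 libraries lay above all CON libraries. The log2 fold change was 1.47 (SE 0.11, adjusted p = 2.35e-08). Ndufa7 followed with 1.37 (SE 0.12, adjusted p = 1.72e-07). The falls were led by Ndufv3, a small flavoprotein-fraction subunit, at 244, 244 and 287 CPM in CON, 182, 150 and 160 in CPT and 128, 113 and 132 in AT3. No 2 of its groups overlapped, and its log2 fold change was -0.65 (SE 0.11, adjusted p = 6.95e-05), against 0.07 on the TPM scale. Of the other rises, Ndufc2 (0.93), Ndufs4 (0.89), Ndufa2 and Ndufb9 (both 0.88), Ndufc1 (0.87), Ndufs6 (0.84) and Ndufb2 (0.81) came next, and 9 more lay between 0.27 (Ndufb3) and 0.67 (Ndufb10). The uncalled Ndufa1, Ndufa5, Ndufb5, Ndufb7, Ndufa6 and Ndufa11 lay between -0.09 and 0.23. The other accessory falls were Ndufb4 (-0.47), Ndufa10 (-0.44), Ndufa3 (-0.42), Ndufb1 (-0.41) and Ndufb4c (-0.25). The annotation lists Ndufb4c, although its name lacks the mark, as a processed pseudogene, and Ndufb1 as a long noncoding RNA at a shared promoter. Estimated counts of Ndufb4 and Ndufb4c were not whole in any of the 9 libraries, so their levels are uncertain. Their sequences were not compared. Ndufb4c kept its call in 5 of 9 fits that leave out a library.

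**Figure D2:**
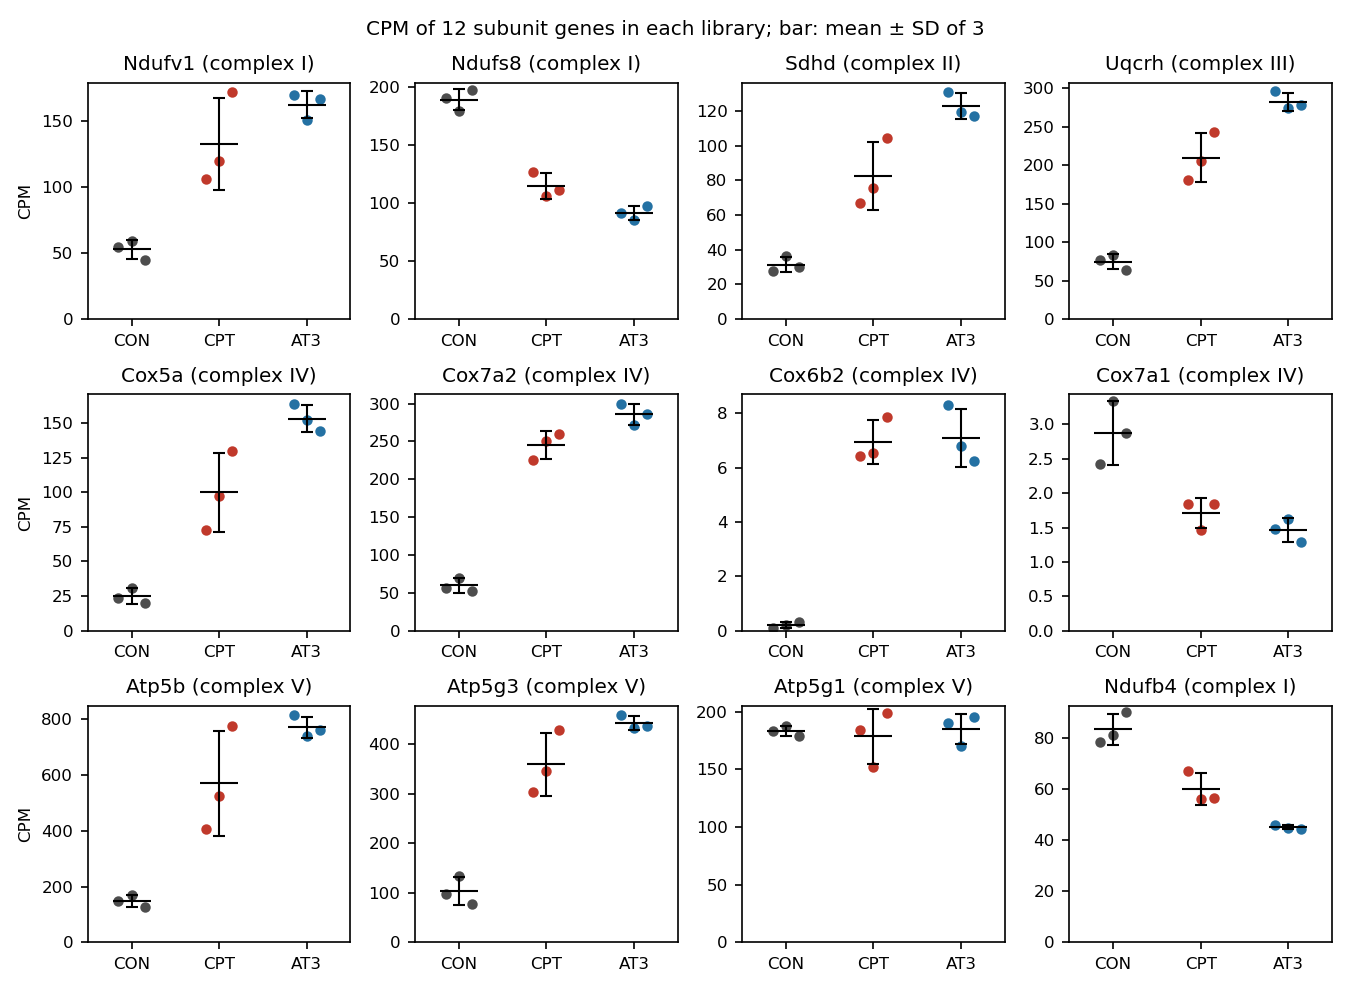
CPM (TMM-scaled) of 12 subunit genes is plotted for each library on linear axes from 0; points are libraries, and bars mark the mean and SD of 3. Cox5a, Cox7a2, Atp5b and Atp5g3 stand above CON in all 6 cisplatin libraries, Ndufs8 and Ndufb4 below it, and Atp5g1 overlaps in all groups.

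Complex II, succinate dehydrogenase, has 4 subunits, of which 3 rose. The membrane anchor Sdhd measured 27.9, 36.2 and 30.2 CPM in CON, 67.0, 75.8 and 104 in CPT and 131, 120 and 117 in AT3, with no overlap between any 2 groups. Its log2 fold change in CPT was 1.39 (SE 0.15, adjusted p = 8.78e-07), and that of the other anchor, Sdhc, was 0.72 (SE 0.10, adjusted p = 1.41e-05). The flavoprotein Sdha went from 53.8, 54.2 and 43.9 CPM to 57.4, 74.2 and 88.9, a log2 fold change of 0.54 (SE 0.13, adjusted p = 0.00281). The CPT libraries of Sdha began just above the highest CON library and spread widely. The iron-sulfur subunit Sdhb, with 242, 264 and 262 CPM in CON and 229, 202 and 243 in CPT, overlapped between groups and was not called (-0.19, SE 0.09, adjusted p = 0.0951). On the TPM scale Sdhb was called higher, by 0.41.

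In complex III the hinge protein Uqcrh (chromosome 4, 116066965 to 116075071) rose most. It measured 76.5, 82.9 and 64.3 CPM in CON, 180, 205 and 243 in CPT and 296, 274 and 278 in AT3, and no 2 groups overlapped. The log2 fold change in CPT was 1.49 (SE 0.12, adjusted p = 5.10e-08). Uqcr10, a small subunit, rose by 1.14 (SE 0.11, adjusted p = 3.07e-07), and Cyc1, the cytochrome c1 itself, by 0.84. The core proteins Uqcrc1 and Uqcrc2 rose by 0.59 and 0.38. The Rieske protein Uqcrfs1, which carries the iron-sulfur cluster, stood at 238, 241 and 238 CPM in CON and 248, 244 and 248 in CPT. Its CPT libraries lay just above CON, and the log2 difference of 0.04 was not called (adjusted p = 0.667). Of the small subunits Uqcr11 fell by 0.27 on the log2 scale (SE 0.10, adjusted p = 0.0333), a call kept in 1 of 9 fits that leave out a library, and on the TPM scale it was called higher, by 0.38. Uqcrq and Uqcrb were at -0.26 and -0.08 without a call.

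Complex IV, cytochrome c oxidase, held the largest rises by edgeR. It also held the largest falls on the CPM scale, though on the TPM scale those of Ndufb4 and Ndufs8 in complex I were larger and none was called. Cox7a2 (chromosome 9, 79755361 to 79759878), the isoform of liver and most tissues, measured 56.0, 70.3 and 52.9 CPM in CON, 225, 251 and 260 in CPT and 300, 271 and 286 in AT3. The CPT libraries lay far above CON and just below AT3. Its log2 fold change was 2.03 (SE 0.12, adjusted p = 8.36e-10). Cox5a (chromosome 9, 57521274 to 57532426), a nuclear subunit on the matrix side, measured 23.8, 31.1 and 20.2 CPM in CON, 73.0, 97.3 and 130 in CPT and 164, 152 and 144 in AT3. No 2 groups overlapped, and the log2 fold change in CPT was 1.99 (SE 0.18, adjusted p = 1.94e-07).

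Cox7a2l, which takes part in joining complexes III and IV into supercomplexes, rose by 1.94 and Ndufa4, a subunit named for complex I and now placed in complex IV, by 1.80. Cox6a1 (0.95), Cox8a (0.77), Cox7b (0.47) and Cox5b (0.41) rose less. Cox6b1 (-0.43) and Cox7c (-0.37) fell on the CPM scale and had differences of 0.14 and 0.26 on the TPM scale, neither called. Cox6c was at -0.06 without a call.

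Isoforms that mark other tissues also moved. Cox6b2 (chromosome 7, 4751792 to 4753094, minus strand), known as the testis isoform of Cox6b1, had 2, 5 and 6 counts in CON, 182, 210 and 205 in CPT and 253, 217 and 174 in AT3. That is 0.112, 0.196 and 0.338 CPM in CON against 6.43, 6.54 and 7.88 in CPT, the largest log2 fold change of any member at 4.99 (SE 0.28, adjusted p = 6.40e-10). With so few counts in CON, Cox6b2 passed the filter on low counts only through the CPT and AT3 libraries. A rise was thus favoured in advance, and the p-value is no independent support for it. The germ cell markers Prm1, Prm2, Tnp1 and Odf1 were at 0 counts in all 9 libraries. Cox6b2 still made up only 2.25% to 2.89% of the summed TPM of Cox6b1 and Cox6b2 in CPT, against 0.0415% to 0.116% in CON. It remained a minor transcript beside Cox6b1.

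The heart and muscle isoform Cox7a1 measured 2.42, 3.34 and 2.87 CPM in CON, 1.84, 1.46 and 1.84 in CPT and 1.48, 1.63 and 1.29 in AT3. CPT lay below CON, with a log2 fold change of -0.76 (SE 0.23, adjusted p = 0.00999), which was -0.10 and not called on the TPM scale. Its share of the TPM of Cox7a1 and Cox7a2, a ratio that library scaling does not touch, went from 9.86% to 10.8% in CON to 1.37% to 1.96% in CPT. Mean TPM of Cox7a1 itself was 10.1 in CON and 9.19 in CPT, while that of Cox7a2 was 88.6 and 534.5. Muscle markers summed to 2.63 to 2.93 CPM in CON and 1.38 to 1.77 in the other libraries, with Myh6 at 0. Of the 2 tested, 1 was lower and 0 higher in CPT by edgeR, and 1 went each way on the TPM scale. Tnnt2 had means of 2.12 CPM in CON and 0.41 in CPT, while Mylpf had 0.65 and 1.08. Ndufa4l2, a hypoxia-induced relative of Ndufa4, measured 2.64, 2.12 and 1.86 CPM in CON and 1.02, 0.778 and 0.807 in CPT, a log2 fold change of -1.34 (SE 0.29, adjusted p = 0.00084) that was -0.06 on the TPM scale. Its exons overlap those of Shmt2 on the opposite strand by 32 bases, and the counting is not stated to use strand. The muscle isoforms Cox6a2 and Cox8b and the testis isoforms Cox7b2 and Cox8c had at most 2 counts in any library and were not tested. Cox6c2 (at most 6 counts), a duplicate Atp5o identifier (at most 4), Ndufs6b (at most 1), Ndufa11b and Ndufb11b (0) were the other untested members. Cox7c and Ndufa12 have pseudogenes listed with up to 203 and 567 counts, so reads may have been split between them.

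**Figure D3:**
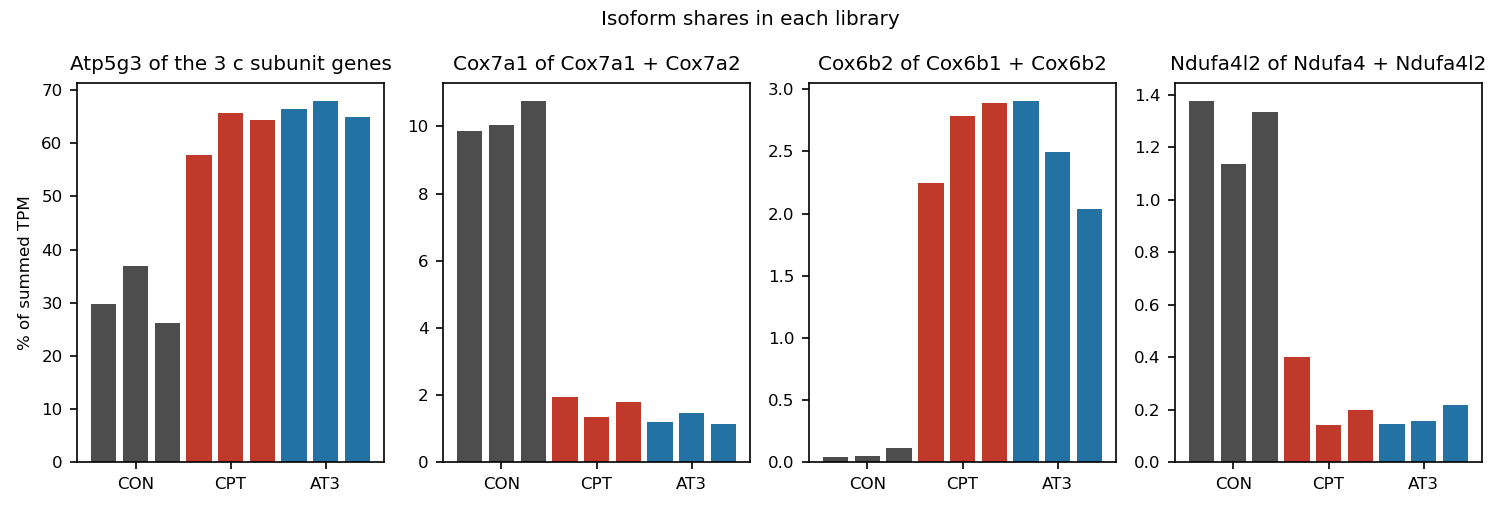
The share of summed TPM held by 1 isoform is plotted for each library (bars; percent, axes from 0; grey CON, red CPT, blue AT3). Atp5g3 passes from 26.1% to 36.9% of the c subunit TPM in CON to 57.7% to 68.0% in the other 6 libraries. The share of Cox6b2 grows and those of Cox7a1 and Ndufa4l2 shrink. Mean TPM of Ndufa4l2 itself was 2.21 in CON and 2.06 in CPT, while that of Ndufa4 was 173 and 894.

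Complex V had 0 falls in CPT by edgeR, by DESeq2 and at an unadjusted p under 0.05. In the catalytic F1 head, where the α and β subunits alternate, Atp5b (β; chromosome 10, 128083273 to 128090391) measured 148, 171 and 127 CPM in CON, 407, 527 and 778 in CPT and 814, 741 and 761 in AT3. All CPT libraries lay above CON, and CPT_3 reached the AT3 range. Its log2 fold change was 1.94 (SE 0.18, adjusted p = 2.64e-07). Atp5a1 (α) rose by 1.30, Atp5d by 0.71 and Atp5c1, the rotating γ shaft, by 0.39, while Atp5e was at 0.06 without a call.

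The membrane ring of c subunits is encoded by 3 genes whose mature proteins are the same. Atp5g3 (chromosome 2, 73908447 to 73911326) measured 97.3, 134 and 78.1 CPM in CON, 303, 346 and 429 in CPT and 459, 433 and 437 in AT3. No 2 groups overlapped, and the log2 fold change in CPT was 1.80 (SE 0.17, adjusted p = 2.06e-07). Atp5g1 stood at 183, 188 and 178 CPM in CON and 184, 152 and 199 in CPT. Its groups overlapped, with a log2 difference of -0.04 (SE 0.11, adjusted p = 0.778). Atp5g1 thus held 62.7% to 73.5% of the TPM of the 3 genes in CON and 34.2% to 41.7% in CPT. Atp5g2 had 6 to 91 counts a library, shares reads with its copies and was not called.

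Peripheral stalk genes were mixed: Atp5pb (subunit b) rose by 1.29 and Atp5o (OSCP) by 0.56, while Atp5h and Atp5j were at 0.10 and -0.12 without a call. All 5 genes of the small membrane subunits rose, from Atp5md (0.29) and Atp5j2 (0.71) through Atp5k (0.73) and Atp5l (1.11) to Atp5mpl (1.65, SE 0.13, adjusted p = 4.88e-08). The inhibitor of the enzyme's reverse reaction, Atpif1, lies outside the name rule. It measured 4.38, 5.97 and 4.05 CPM in CON and 18.8, 26.0 and 24.9 in CPT, a log2 fold change of 2.25 (SE 0.16, adjusted p = 8.44e-09). Cox4i1, Cycs, Ndufab1 and Dmac2l, also outside the rule, rose by 0.26, 0.41, 0.56 and 0.89.

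The count per TPM of a gene follows its effective length, so a change in transcript form shows as a shift of that quotient. Measured against the median of tested genes, it shifted by more than 0.4 on the log2 scale in CPT for 7 members, among them upward for Ndufv1 (0.82), Ndufb8 (0.69) and Atp5a1 (0.52), and downward for Ndufa4l2 (-0.63), Sdhc (-0.56) and Cyc1 (-0.47). The 3 CPT libraries lay apart from the 3 CON libraries in this quotient for each of these. For them the CPM and TPM differences are not interchangeable: Cyc1 rose by 0.84 in CPM and by 1.89 in TPM, Sdhc by 0.72 and 1.86, and Ndufb8 by 0.33 and, without a call, 0.26.

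In TPM, which is per length, the most abundant subunit transcripts of the CON livers were Ndufa3 in complex I (559 ± 74.9, SD, n = 3), Sdhb in II (169 ± 29.8), Uqcrq in III (1316 ± 154), Cox7c in IV (861 ± 92.5) and Atp5e in V (984 ± 183). In AT3, leaving out the pseudogene Ndufb4c, they were Ndufa3 (567 ± 47.2), Sdhb (240 ± 7.52), Uqcr10 (1260 ± 82.8), Ndufa4 (1085 ± 116) and Atp5e (1414 ± 74.3). Uqcr10 and Uqcrq (1243 ± 100.5) did not differ in AT3 beyond their spread.

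Subunit levels drew closer to each other within each complex. This was described in TPM, which allows levels of different genes to be compared, over 75 members; the tissue isoforms, Atp5g2, Ndufb4 and Ndufb4c were left out, a choice made after their values were seen. In complex IV the highest of 11 subunits stood 98.1, 75.2 and 106 times above the lowest for CON, 30.7, 17.1 and 15.5 times for CPT and 13.9, 14.4 and 13.0 times for AT3. No 2 groups overlapped. The ratio was 28.8 to 32.7 in CON and 19.9 to 20.7 in CPT for complex I, 43.8 to 48.9 and 24.0 to 35.4 for complex III, and 18.4 to 21.3 and 7.61 to 11.3 for complex V. In complex II, with 4 genes, it was 10.5 to 14.8 in CON and 7.28 to 10.2 in CPT. AT3 lay below CPT in each: 12.9 to 15.7 for I, 6.50 to 6.94 for II, 17.3 to 19.5 for III and 5.38 to 6.19 for V.

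Over all 75 genes the SD of log2 TPM ranged from 1.39 to 1.49 over CON libraries, from 1.23 to 1.31 over CPT and from 1.18 to 1.20 over AT3. For the 1638 tested genes with a mean TPM in the same range it was 1.61 to 1.67, 1.54 to 1.56 and 1.54 to 1.55, and for 13221 tested genes above 0 in all libraries it went up, from 2.82 to 2.85 in CON to 3.01 to 3.10 in CPT. A narrower spread of genes in that abundance range was thus not limited to subunits, and AT3 overlapped CPT there. With 3 libraries a group an exact permutation test cannot go below p = 0.1, so none was run.

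**Figure D4:**
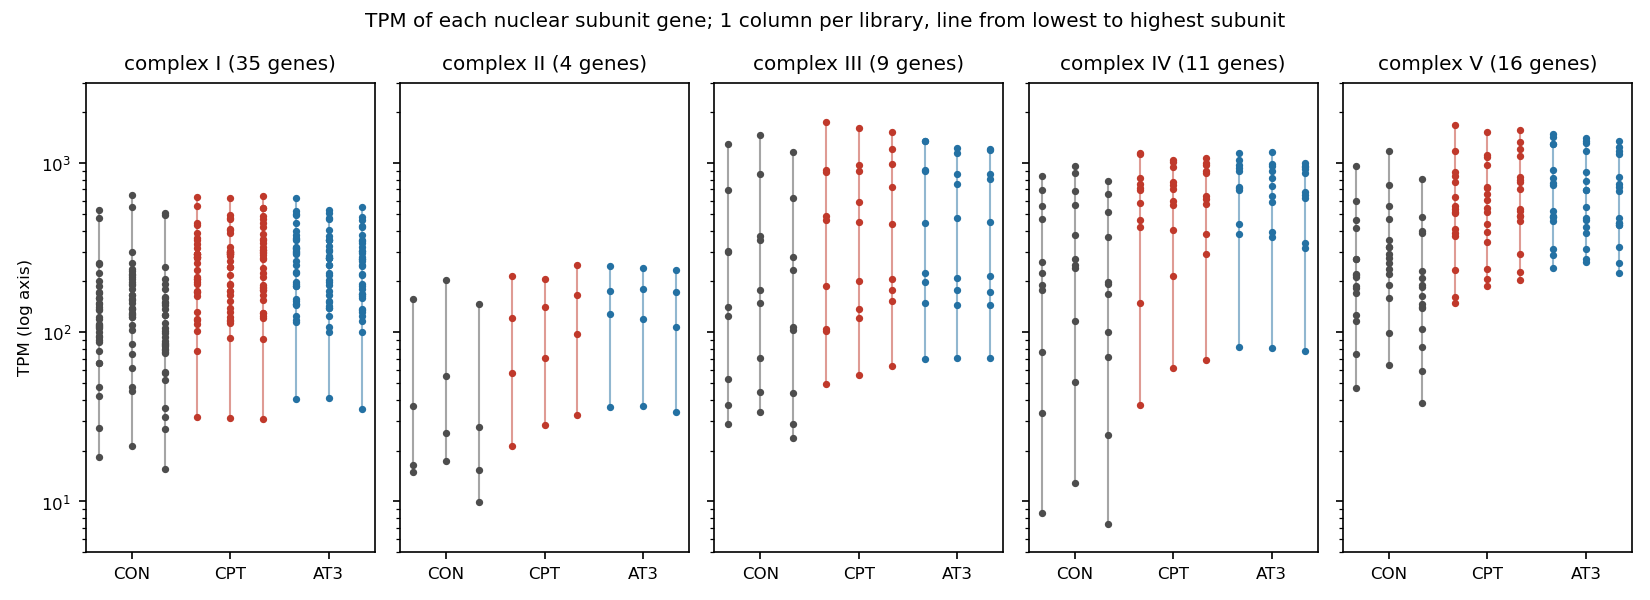
TPM of each of the 75 subunit genes is plotted on a log axis, 1 column a library and 1 panel a complex; each line joins the lowest and the highest subunit. The lower ends move up from CON to CPT and AT3 more than the upper ends, and in complex IV the span shrinks from 75.2 to 106-fold in CON to 13.0 to 14.4-fold in AT3. By group mean, Cox7a2l is the lowest of complex IV.

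Summed TPM of nuclear and of mitochondrial subunits of the same complexes went in opposite directions, although 12 nuclear members fell by edgeR. All 13 mitochondrially encoded protein genes were lower in CPT than in CON (median log2 fold change -1.67, and -1.02 on the TPM scale). Summed TPM of mitochondrial over nuclear subunits was 32.3, 21.5 and 41.4 in complex IV in CON, 9.77, 7.71 and 6.62 in CPT and 5.51, 5.77 and 6.90 in AT3. CON lay above both other groups, which overlapped. The means for complex I were 16.5 ± 5.14 (SD, n = 3) in CON, 4.13 ± 0.810 in CPT and 3.34 ± 0.341 in AT3. Complex III went from 4.85 ± 1.55 to 1.40 ± 0.324 and 1.19 ± 0.0948, and complex V from 14.5 ± 4.33 to 3.29 ± 0.992 and 2.64 ± 0.120. Most of the mitochondrial sum of complex V was mt-Atp8, with mean TPM of 49670 in CON, 28500 in CPT and 27100 in AT3. The means of mt-Atp6 were 15090, 5698 and 3193. In CPM, mt-Atp8 was the lower of these genes, with means of 1764 against 11730 in CON. Members took 0.773% to 1.10% of all counts in CON and 1.52% to 1.70% in CPT. Over counts outside mitochondrially encoded genes these shares were 1.22% to 1.48% and 1.80% to 1.91%, still without overlap. Genes with names starting with mt- were taken as mitochondrially encoded for all such shares of counts. Gm28437 and Gm28661, ranked 3 and 5 of all genes by mean share of counts, were not among them. Whether their counts include reads of mitochondrial transcripts was not tested.

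**Figure D5:**
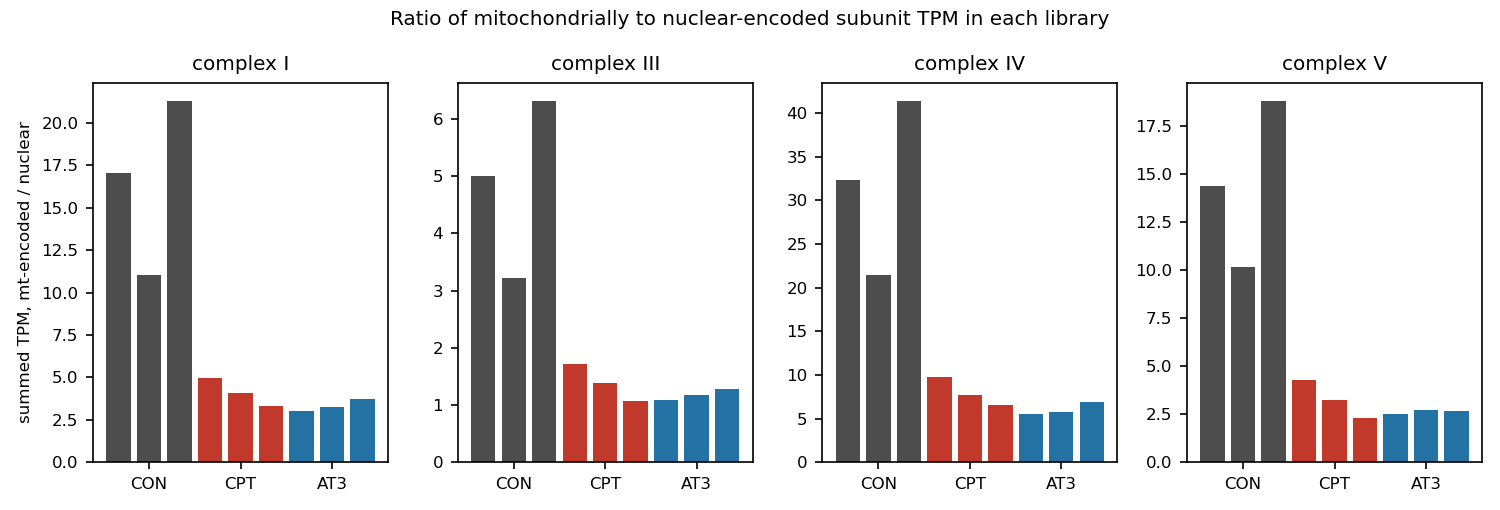
The summed TPM of mitochondrially encoded subunits over that of nuclear subunits is plotted for each library in complexes I, III, IV and V (bars from 0; grey CON, red CPT, blue AT3). All 3 CON bars exceed all 6 others in each panel, for complex IV 21.5 to 41.4 against 5.51 to 9.77.

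Few members were called between AT3 and CPT livers. In AT3 against CPT, 3 of the 81 members were higher and 4 lower, beside 2.46% and 2.22% of all tested genes, and the median log2 fold change was 0.02. The 3 AT3 libraries lay above the 3 CPT libraries in 16 members and below them in 13, where 14.5% and 12.5% of all tested genes did so. The called rises were Sdhd (0.58, SE 0.14, adjusted p = 0.0306), Uqcrh (0.43, SE 0.12, adjusted p = 0.0491) and Ndufs1 (0.35, SE 0.09, adjusted p = 0.0318) by edgeR. Ndufs1, which takes electrons from the NADH site, measured 28.8, 28.9 and 31.5 CPM in CPT and 37.5, 39.1 and 37.3 in AT3.

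The called falls were Uqcrq (-0.42, SE 0.11, adjusted p = 0.0392), Ndufb4 (-0.41, SE 0.10, adjusted p = 0.0267), Ndufv3 (-0.40, SE 0.11, adjusted p = 0.0429) and Ndufb7 (-0.37, SE 0.09, adjusted p = 0.0304). Levels of Ndufb4 are uncertain, since its estimated counts were not whole in any library. Uqcrq, a small subunit of complex III, measured 634, 530 and 523 CPM in CPT and 446, 368 and 446 in AT3. Ndufb7 measured 199, 175 and 186 CPM in CPT and 146, 138 and 149 in AT3. Each of the 7 calls was kept in 3 or 4 of 9 fits that leave out a library. On the TPM scale 0 members were called, where limma called 29 higher and 16 lower of all 13686 tested genes. At an unadjusted p under 0.05 limma gave 8 members higher and 4 lower. DESeq2 called 6 higher and 5 lower. For counts by DESeq2 or at an unadjusted p, here and elsewhere, the shares of all tested genes are not given. No result about the members is therefore read from those counts.

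Cox5a (0.62, adjusted p = 0.0549), Atp5a1 (0.48, adjusted p = 0.056) and Ndufs8 (-0.33, adjusted p = 0.0668) were close to the threshold without a call. CPT_3 lay nearest to AT3 for Cox5a, Sdhd, Uqcrh, Atp5b and Ndufv1. Without CPT_3 the count of called members was at its highest for rises, 13, against 3 with all libraries, beside 5 falls. Without any 1 of the AT3 libraries, or without CPT_1, 0 members were called in either direction, and without CON_1 there was 1 call each way. By complex the medians in AT3 against CPT were -0.10 for I, 0.24 for II, 0.14 for III, -0.01 for IV and 0.05 for V, and 0 of the 31 members of complexes IV and V were called by edgeR. At an unadjusted p under 0.05, 5 of these 31 were higher and 2 lower, and DESeq2 called 3 higher. A p above the threshold does not show that AT3 and CPT livers are alike in the other members.

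Against CON, AT3 livers had 48 members higher, 17 lower and 16 not called, beside 31.5% and 32.9% of all tested genes; the comparison shares the CON libraries with that of CPT and the AT3 libraries with the last. On the CPM scale 50 members lay above and 20 below CON without overlap, where 34.5% and 35.9% of all tested genes did. The median was 0.48, and 1.10 on the TPM scale, where 65 members were higher and 2, Ndufs8 (-0.36) and Ndufb4 (-0.57, of uncertain level), were lower. Of all 13686 tested genes, 7017 were higher and 1698 lower on the TPM scale. Complex V had 12 of 17 higher and 1 lower, complex II 3 of 4 higher, complex IV 8 of 14 higher and 4 lower, complex III 5 of 9 and 2, and complex I 20 of 37 and 10. The largest log2 fold changes were those of Cox6b2 (5.03, with the limit given above), Cox5a (2.61), Cox7a2l (2.39), Atp5b (2.38) and Cox7a2 (2.25), and at the other end Ndufa4l2 (-1.56), Ndufv3 (-1.05) and Ndufs8 (-1.05).

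Genes that build the complexes were taken from lists. Of 16 assembly factors of complex I, 7 were higher in CPT, 2 lower and 7 not called, with a median of 0.21, beside the 30.0% and 30.8% of all tested genes. In TPM, 10 were higher and 0 lower by limma, with a median of 0.68, beside 6631 higher and 1604 lower of all 13686 tested genes. Dmac1 (1.28, SE 0.12, adjusted p = 1.63e-07), Foxred1 (0.91) and Nubpl (2.44, SE 0.50) had the smallest p among the rises, and the falls were Ndufaf1 (-0.49) and Ecsit (-0.23, kept in 1 of 9 fits that leave out a library). Of 36 tested assembly factors of complexes II to V, 16 were higher, 4 lower and 16 not called, with a median of 0.19. By limma on TPM, 28 were higher and 2 lower, with a median of 0.72, beside the same counts of all tested genes. Coa6, Coa3 (1.46) and Cox18 (1.36), all 3 of complex IV, had the smallest p among the rises. Sco2, which delivers copper to Cox2, fell from at least 102 CPM in each CON library to at most 39.6 in each CPT library, a log2 fold change of -1.70 (SE 0.11, adjusted p = 4.20e-09) that was -1.08 on the TPM scale and called there too. Uqcc2, a complex III factor, fell by 0.77 and was at -0.13 without a call on the TPM scale. Pet100, another complex IV factor, fell by 1.02 in CPT and by a further 0.64 in AT3 against CPT (adjusted p = 0.00364 by edgeR), a call kept in 9 of 9 fits that leave out a library. On the TPM scale this difference was -0.59 and not called (adjusted p = 0.055 by limma).

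Of 17 tested regulators of mitochondrial biogenesis, 6 were higher in CPT, 1 lower and 10 not called, with a median of 0.14, and the share higher was near that of all tested genes (30.0%). Of the same 17, limma on TPM called 13 higher and 1 lower, with a median of 0.67. It called 6631 higher and 1604 lower of all 13686 tested genes. Ppargc1a measured 2.08, 2.75 and 2.70 CPM in CON, 9.47, 5.60 and 9.65 in CPT and 10.6, 10.9 and 9.56 in AT3. CPT lay above CON, with a log2 fold change of 1.70 (SE 0.21, adjusted p = 3.73e-06). Its relative Pprc1 rose by 1.37, the helicase Twnk by 0.56 and Esrra by 0.56, while Nrf1, Gabpa, Yy1 and Tfam were not called. Polrmt, the RNA polymerase of mitochondria, fell by 0.59 (SE 0.13, adjusted p = 0.00137), and by 0.69 on the TPM scale, where it was called too. In AT3 against CPT 0 of the 17 were called by edgeR and by DESeq2, and 1 was higher at an unadjusted p under 0.05. Of all tested genes edgeR called 2.46% higher and 2.22% lower there.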

How the data were processed

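Gene-level estimated counts (expected counts, rounded to whole numbers here) and TPM values of the 9 libraries were deposited by the authors. Per the labels' protocols, RNA came from liver and a SMARTer mRNA-Seq kit was used; the aligner, the counter and the use of strand were not found in the labels. Gene positions and exon overlaps come from GENCODE M21 (GRCm38), which held 90 of 90 members by identifier. Counts of 52 members were whole in every library.

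Genes kept by edgeR's filterByExpr were scaled by TMM and fitted together with the quasi-likelihood model of edgeR 4.0.16 (R 4.3.3), adjusting over 13686 genes; the code was tested on simulated data. TPM was tested with limma 3.58.1 after adding 1 or 0.1 and taking log2. Other alternatives were DESeq2 1.42.0, its size factors in edgeR, no filter, the 6 libraries compared alone, removal of mitochondrially encoded and the 10 most abundant genes, a replicate block, and each library left out. Ndufa4 and Ndufa4l2 were counted with complex IV.

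Members and lists were chosen with earlier results of these data known. The rule for full statistics took, per comparison and complex, the 2 largest called rises and falls, the tissue isoforms, the Sdh genes and ATP synthase regulators, and from each list up to 3 called genes a direction by p; genes outside it, Esrra among them, were chosen after their values were seen.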

Additional observations from a re-analysis of the deposited data

How the results depend on the processing

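In CPT against CON the members called lower were 0 on log2(TPM + 1) and 0 on log2(TPM + 0.1), and the median log2 difference over all members was 0.98 and 0.99. The median of all tested genes was 0.29 and 0.51, so that of the members lay 0.69 and 0.48 above it. In AT3 against CON the same scales gave 2 and 2 lower members and a median of 1.10 and 1.10, which lay 0.78 and 0.53 above that of all tested genes. In AT3 against CPT these scales gave 0 and 0 higher and 0 and 0 lower members. Of all 13686 tested genes, 29 were higher and 16 lower there on log2(TPM + 1). For that comparison DESeq2 called 6 members higher, and the fit with no filter on low counts 9. A single value below stands for both TPM scales. Members whose difference turned positive in CPT against CON were Atp5g1 (0.53), Atp5j (0.31), Cox6b1 (0.14), Cox6c (0.57), Cox7c (0.26), Ndufa1 (0.56), Ndufa10 (0.18), Ndufa3 (0.18), Ndufa5 (0.37), Ndufb1 (0.18), Ndufb4c (0.40), Ndufs7 (0.36), Ndufv3 (0.074), Sdhb (0.41), Uqcr11 (0.38), Uqcrb (0.54) and Uqcrq (0.315 and 0.315). Of all 81 members, 17 changed sign on these scales in CPT against CON, 9 of them not called by edgeR, 18 in AT3 against CON and 7 in AT3 against CPT. With no filter Ndufa5 (0.0078), Uqcrb (0.0042), Cox6c (0.024) and Atp5g1 (0.05) were positive in CPT against CON, Atp5g1 also without mitochondrially encoded and the 10 most abundant genes (0.0086). None of these 4 was called by edgeR with the filter. The cause was not tested.

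Leaving out 1 library at a time gave 50 to 52 higher and 10 to 12 lower members in CPT against CON (median 0.43 to 0.50), 0 to 13 higher and 0 to 5 lower in AT3 against CPT (median -0.02 to 0.04), and 47 to 51 higher and 15 to 17 lower in AT3 against CON (median 0.47 to 0.54). Of uncalled members in CPT against CON, it moved the log2 difference across 0 for Ndufa5 (-0.114 to 0.021), Ndufb5 (-0.047 to 0.050), Cox6c (-0.114 to 0.027), Atp5g1 (-0.108 to 0.079) and Atp5g2 (-0.604 to 0.497). Deviations of same-numbered libraries from their group means correlated weakly (r from -0.04 to 0.08). Between CPT and AT3, r was 0.05, 0.08 and 0.07 for same-numbered libraries and -0.06 to -0.02 for the others. Such small values do not decide whether the numbers pair the libraries. A replicate block gave 51 higher and 13 lower members in CPT against CON, and 48 and 17 in AT3 against CON. In AT3 against CPT it gave 1 and 1, where the fit without it gave 3 and 4. The block put the uncalled Atp5g2 at -0.104 in CPT against CON. Isoforms with few counts, such as Cox6b2 in CON, are limited by depth.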

Other observations

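Enzymes that feed the chain were described from 2 further lists. Of 18 enzymes of the TCA cycle and its entry points, 12 were higher in CPT than in CON, 2 lower and 4 not called, with a median log2 fold change of 0.86, beside 30.0% of all tested genes higher and 30.8% lower. By limma on TPM, 16 were higher and 0 lower, with a median of 1.34, beside 6631 higher and 1604 lower of all 13686 tested genes. By edgeR, fumarate hydratase Fh1 rose by 1.66 (adjusted p = 3.63e-09) and malate dehydrogenase Mdh2 by 1.68 (adjusted p = 1.20e-07). Citrate synthase Cs fell by 0.33 on the log2 scale and Suclg2 by 0.30; on the TPM scale both differences were positive, 0.25 and 0.49. In AT3 against CPT 3 of the 18 were higher and 0 lower by edgeR, beside 2.46% and 2.22% of all tested genes. Among the 3 were Idh3a by 0.74 (adjusted p = 0.0013, kept in 9 of 9 fits that leave out a library) and Dlat by 0.54 (kept in 3). On the TPM scale 0 of the 18 were called by limma, with 5 higher at an unadjusted p under 0.05, and Idh3a was at 0.76 (adjusted p = 0.0618). Limma called 29 higher and 16 lower of all 13686 tested genes there.

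Of 23 genes of the outer membrane and of protein import, 18 were higher in CPT, 3 lower and 2 not called by edgeR, with a median of 0.71. Among all tested genes edgeR called 30.0% higher and 30.8% lower. In TPM, 21 were higher and 0 lower by limma, with a median of 1.34, beside 6631 higher and 1604 lower of all 13686 tested genes. The import channel subunits Timm17a and Timm17b rose by 2.22 (adjusted p = 2.42e-09 by edgeR) and 1.29, and the receptor Tomm20 by 1.32. The prohibitin Phb (-0.35), Timm9 (-0.36) and Timm44 (-0.24) fell, the last in 1 of 9 fits that leave out a library; on the TPM scale the 3 differences were positive. In AT3 against CPT 0 of the 23 were called by edgeR and by DESeq2, and 6 were higher at an unadjusted p under 0.05 in edgeR. Of all tested genes edgeR called 2.46% higher and 2.22% lower there.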
